A study of Rattus norvegicus and synthetic construct with 4 samples.

Results

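Islet hormone and secretory granule gene loci contributed 33 human DNA elements to the 3378 elements counted in a STARR-seq reporter experiment. The rule that picks the members uses position and no measured value, although the list of points was drawn up with earlier results of these data known. An element belongs to the set when its midpoint lies within 10 kb of one of 36 listed genomic points (hg19, as are all coordinates here), which carry the names of 34 genes, with GNAS listed at 2 points and 1 point on chromosome 7 listed without a name. Counted elements were found at 18 of the points and for 17 of the named genes. The member farthest from its point lay at 6341 bp (VAMP2), and the nearest counted element outside the window lay at 12787 bp from a GNAS point, on chromosome 20 from 57478689 to 57478886. Their RNA/DNA was 0.538 ± 0.856 and 0.287 ± 0.216 times the centre of the library (SD, n = 3). Of the 33 members, 29 lay at most 1098 bp from their point, and the median distance was 785 bp. The element names give coordinates and no gene, and no human annotation was used here. A gene name below is therefore that of the listed point, and whether an element lies in a promoter, exon or intron was not determined.

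The study placed 7188 designed human islet CAGE elements of 198 bp, which mark the 5' ends of transcripts, in a STARR-seq plasmid. In this assay an element drives transcription of a reporter RNA, so the RNA made per plasmid DNA measures its activity. The plasmids also carried random barcodes of 16 bases and were electroporated, at 10 ug per replicate, into INS1 832/13 cells, a rat insulinoma line used to model beta cells. Cells were harvested 24 h later. The groups were 3 RNA libraries, called biological replicates in the labels, and the input plasmid DNA as 1 library. The RNA was made in rat cells from human sequence, so factors of 1 beta cell-like line acted on elements that the islet may use in alpha, delta or other cells, and no element was at its own place in the genome.

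Endocrine islet cells store peptide hormones in dense-core granules. Prohormones are folded in the endoplasmic reticulum, packed with granins, cut by prohormone convertases and trimmed by further enzymes, and the granules fuse with the plasma membrane through SNARE proteins when glucose metabolism or depolarization raises calcium. Many of these genes are strongly transcribed in islets, and beta cells, alpha cells and delta cells each transcribe a different hormone gene.

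Depth was 1079728 counts for the plasmid DNA and 211117, 197554 and 218571 counts for RNA replicates 1, 2 and 3. The 33 members took 1.25% of the DNA counts and 0.892%, 0.776% and 0.892% of the RNA counts. They rested on 426 barcodes, from 2 to 73 per element with a median of 10, against a median of 6 for all counted elements. Each barcode marks a separate plasmid, so barcodes are the independent copies of an element within a library and RNA libraries are the replicates of the experiment. Ratios are given relative to the centre of the library, the RNA/DNA that the TMM normalization sets to 1. A ratio below 1 means less RNA than this centre and does not show repression, because no control sequence was used here. The median ratio of all counted elements was 0.908, 0.926 and 0.900 in RNA replicates 1, 2 and 3. A ratio just below 1 can thus lie above the median element.

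The human element sequences were not used here. The barcodes through which 3 elements were read are shown instead, because they are the sequences actually counted and because copies of the same element gave very different amounts of RNA. For the elements at SNAP25, SCG3 and SCG2, the first and second barcode by RNA count are printed, followed by the barcode with the most DNA among those under 5 counts in every RNA library.
SNAP25, first by RNA: gtcataaggcgtactt
SNAP25, second by RNA: tagcaggtgatgtcca
SNAP25, low RNA: aatgttgtagcgactt
SCG3, first by RNA: ctttagttgtggttac
SCG3, second by RNA: atacggtgaagatata
SCG3, low RNA: gtggaagtattaattt
SCG2, first by RNA: ttagtaaatgttgttc
SCG2, second by RNA: ttgcttagactatttt
SCG2, low RNA: gccgccactgacagta
The first SNAP25 barcode had 143 DNA counts and 71, 49 and 49 RNA counts in the 3 libraries. The SNAP25 barcode of low RNA had 45 DNA counts and 1, 0 and 0 RNA counts, although it marks the same human sequence. At SCG3 the first barcode had 80 DNA counts and 88, 23 and 75 RNA counts, and the barcode of low RNA had 44 DNA counts and 1, 3 and 0 RNA counts. The first SCG2 barcode was high in 2 libraries and low in the other, with 24, 2 and 27 RNA counts on 18 DNA counts.

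Of the elements at hormone and granule gene loci, 2 gave more RNA per plasmid than the typical islet element, and 0 were called lower. The 2 were the SNAP25 element, at 2.99 ± 0.271 times the centre, and 1 of 3 SCG3 elements, at 2.64 ± 0.227 times (SD over RNA libraries, n = 3). They were the only members called above the centre in edgeR's quasi-likelihood test of RNA against DNA (Benjamini-Hochberg adjusted p under 0.05 over all 3378 elements), which is 6.06% of the 33 members beside 8.88% of all counted elements. Below the centre, edgeR called 0 members and 0% of all elements, and 0 members were below it at an unadjusted p under 0.05. DESeq2 called 0 members below but left 17 of them without an adjusted p. In limma-voom 2 of the 33 members were below, beside 4.03% of all elements. Its median log2 ratio over all elements was -0.32, against -0.03 by edgeR.

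Without regard to the test, 3 members were above the centre in 3 of 3 RNA libraries (9.09%), beside 25.8% of all counted elements. Below it in 3 of 3 libraries were 16 members (48.5%), beside 29.4% of all. The median log2 RNA/DNA of the members was -0.69, and that of all counted elements was -0.03. The members ranged from -3.02 to 1.58. The 10th and 90th percentiles were -1.35 and 0.52 for the members and -1.60 and 1.85 for all elements. The members therefore held fewer strong elements in their upper tail than the whole table, as a description of these lists with no test of the difference.

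Summed over the set, RNA/DNA was 1.20, 1.02 and 1.21 times the centre in the 3 libraries, beside 1.67, 1.64 and 1.69 times for all counted elements. SNAP25 alone held 15.2% of the members' DNA counts and 40.0% ± 3.52 (SD, n = 3) of their RNA counts. The called SCG3 element held 6.67% of the DNA and 15.4% ± 0.504 of the RNA. The other 31 members together were at 0.740, 0.549 and 0.670 times the centre, and the 3078 elements of the table that were not called were at 1.06, 1.05 and 1.04 times. Both remainders leave out elements called on this same ratio, so they had to be lower than the full sets. The median log2 ratio was -0.75 for the 31 members and -0.17 for the 3078 elements.

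SNAP25 encodes the plasma membrane SNARE that takes part in fusing insulin granules with the cell surface. Its element, on chromosome 20 from 10199442 to 10199639 with its midpoint 540 bp from the listed point, had 73 barcodes, the most of any member. On 2049 DNA counts it gave 677, 649 and 813 RNA counts. These are 2.83, 2.84 and 3.30 times the centre, so all 3 libraries lay in a narrow range well above 1. The log2 ratio was 1.58 ± 0.26 (SE), and edgeR's quasi-likelihood test gave an adjusted p of 1.93e-06. With RNA counts of 1 to 4 on single barcodes treated as 0, the call was lost (log2 1.03, edgeR's adjusted p 0.0550). That setting moved the median of all elements from -0.03 to -0.85, and the element stood 1.88 above that median, against 1.61 in the main setting. It takes more from elements whose RNA lies mostly on barcodes of low counts, so the greater distance does not make up for the lost call. The log2 ratio of 1.58 is a moderate level, since the highest element of the whole table had a log2 ratio of 4.64. The element ranked at the 86.6th percentile of all counted elements.

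The output of the SNAP25 element came from many plasmids. Its first barcode by RNA held 7.90% of its RNA, and with that barcode left out, and the first barcode of every other element too, its log2 ratio was 1.97 (adjusted p 1.53e-09 in edgeR's quasi-likelihood test). Over all counted elements the first barcode held a median of 41.0% of the RNA, so this setting takes more from the typical element. The rise from 1.58 is therefore no support for a higher level. In the separate libraries 25, 28 and 32 of the 73 barcodes reached 5 or more RNA counts. Only 9 barcodes did so in all 3 libraries, 19 in 2 and 20 in 1, and 25 barcodes stayed under 5 counts throughout. A high level of the element thus sat beside plasmids of the same element with almost no RNA.

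SCG3 encodes secretogranin III, a granin that binds chromogranin A and cholesterol-rich granule membrane. Its 3 counted elements were tiles of 198 bp on chromosome 15. The tile from 51973581 to 51973778 gave 298, 240 and 290 RNA counts on 899 DNA counts from 27 barcodes, or 2.84, 2.39 and 2.69 times the centre. The log2 ratio was 1.40 ± 0.37 (SE), and edgeR's quasi-likelihood test gave an adjusted p of 0.00392. The call was lost with RNA counts of 1 to 4 treated as 0 (log2 0.86, edgeR's adjusted p 0.382) and with library totals in place of TMM (log2 0.66, edgeR's adjusted p 0.312). Library totals moved the median of all elements from -0.03 to -0.77, so the tile stood 1.43 above that median in both settings. A change of scaling moves all elements almost alike, so this distance could hardly change. With low counts treated as 0 the tile stood 1.71 above. That setting takes more from elements whose RNA lies mostly on barcodes of low counts. Neither distance makes up for a lost call.

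Of the 3 SCG3 tiles, only the one of lowest coordinate was called above the centre. The tile that starts 100 bp further, at 51973681, and shares 98 bp with the first gave 0.714, 0.687 and 1.08 times the centre from 10 barcodes. The tile from 51973881 to 51974078, which shares no base with the first, gave 0.354, 0.211 and 0.663 times, also from 10 barcodes. The log2 ratios of these later tiles were -0.27 ± 1.06 and -1.28 ± 1.26 (SE), against an SE of 0.37 for the first. Their levels are thus known less well. In all 3 libraries the first tile was above both others without overlap, and the second was above the third. The first and second tile differed by 1.67 in log2 ratio, with an exact two-sided sign-flip permutation p of 0.25 over the 3 libraries, the smallest that 3 paired values allow, and 0.75 after adjustment over the 12 overlapping pairs of members. A further tile from 51973781 to 51973978, paired with 16 barcodes, was not analysed here.

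None of the 7 counted elements at the other granin loci was called by edgeR, beside 8.88% of all counted elements above the centre and 0% below. SCG2 encodes secretogranin II, a granule protein cut into secretoneurin. Its element, on chromosome 2 from 224466947 to 224467144, had 36 barcodes, the second most of the members, and gave 71, 74 and 117 RNA counts on 991 DNA counts. At 0.614, 0.669 and 0.983 times the centre it was below 1 in each library, with a log2 ratio of -0.40 ± 0.52 (SE) and edgeR's adjusted p at 0.917. It had 84 paired barcodes, of which 42.9% were in the count table, against 60.3% for SNAP25, 61.4% for the called SCG3 tile and 40.8% over the whole pairing table. A barcode enters the count table only with RNA, so this share is not independent of activity.

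SCG5 encodes 7B2, the chaperone of the convertase PCSK2. Its 3 tiles on chromosome 15 start at 32933772, 32933872 and 32933972. The first, with 30 barcodes and 1044 DNA counts, gave 0.312, 0.867 and 0.742 times the centre, and the third, with 10 barcodes, gave 0.557, 0.506 and 0.800 times. The middle tile, with 7 barcodes, gave 1.97, 0.278 and 1.34 times, so its libraries fell on both sides of the centre and overlapped those of its neighbours. Its RNA came largely from few plasmids, with 78.4% of the counts of replicate 1 on 1 barcode.

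CHGA encodes chromogranin A, which drives granule formation and is the source of several peptides. Its first tile, on chromosome 14 from 93388958 to 93389155, had 14 barcodes and gave 0.691, 0.388 and 0.705 times the centre. The second, from 93389058 to 93389255, gave 5.19, 1.09 and 1.01 times, and was the third member above the centre in every library. It rested on 2 barcodes, with 20, 4 and 4 RNA counts on 33 DNA counts, and the 20 counts of replicate 1 were on 1 barcode. Its log2 ratio of 1.27 ± 2.01 (SE) had an adjusted p of 0.953 by edgeR. The last tile, from 93389158 to 93389355, also had 2 barcodes and gave 0, 1 and 2 RNA counts on 39 DNA counts. A count of 0 in replicate 1 allows a ratio of up to 0.659 times the centre, for counting error only, and the ranges of the first and the last tile over the libraries overlapped.

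All 6 counted elements at peptide hormone loci had mean ratios below the centre, from 0.413 to 0.592 times, and edgeR called 0 of them in either direction, also at an unadjusted p under 0.05. Of all 3378 counted elements, 51.2% had a log2 ratio below 0, and edgeR called 8.88% above the centre and 0% below. At an unadjusted p under 0.05 these were 457 above and 26 below. With 6 elements, 0 calls do not set the hormone loci apart from the table. Adjusted p ran from 0.719 to 0.956 by edgeR. In limma-voom 0 were called, and DESeq2 called 0 but gave no adjusted p for 4 of the 6. The GCG locus encodes proglucagon, the precursor of glucagon in alpha cells. Its elements are the only hormone members more than 1000 bp from their point, at -5869 and -4054 bp, towards lower coordinates. The one from 163002033 to 163002230 on chromosome 2 had 22 barcodes and gave 89, 60 and 23 RNA counts on 864 DNA counts, or 0.882, 0.622 and 0.222 times the centre. The one from 163003848 to 163004045 had 15 barcodes and gave 38, 9 and 27 RNA counts on 509 DNA counts, or 0.640, 0.158 and 0.442 times. Both GCG elements were below 1 in every library, and their ranges overlapped.

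SST encodes somatostatin, the inhibitory hormone of delta cells. Its tile on chromosome 3 from 187388040 to 187388237 had 11 barcodes and gave 17, 10 and 23 RNA counts on 328 DNA counts, or 0.444, 0.273 and 0.584 times the centre. The tile 100 bp further, with 6 barcodes, gave 7, 6 and 17 RNA counts on 181 DNA counts, or 0.331, 0.297 and 0.782 times. The 2 tiles share 98 bp, were both below 1 in each library, and had means of 0.434 ± 0.156 and 0.470 ± 0.271 (SD, n = 3).

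IAPP encodes amylin, which beta cells release together with insulin. Its tile on chromosome 12 from 21525684 to 21525881 had 8 barcodes and gave 19, 32 and 4 RNA counts on 272 DNA counts, or 0.598, 1.05 and 0.122 times the centre. The tile from 21525784 to 21525981 had 2 barcodes and gave 1, 19 and 1 RNA counts on 121 DNA counts, or 0.0708, 1.41 and 0.0688 times. Both tiles were highest in replicate 2 and above 1 there only. In the second tile the 19 counts were all on 1 barcode. INS and PPY had no counted element and were not analysed here.

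Among prohormone-processing genes only PCSK1 had counted elements. It encodes the convertase that makes the first cut of proinsulin. Of its 3 tiles on chromosome 5, the one from 95769000 to 95769197, with 26 barcodes and 977 DNA counts, gave 0.561, 0.431 and 0.401 times the centre, the narrowest absolute spread of any member (SD 0.0853, n = 3). Its log2 ratio of -1.11 ± 0.61 (SE) had the lowest unadjusted p of the members not called, at 0.0730, and edgeR's adjusted p was 0.453. With library totals in place of TMM it was called below the centre (log2 -1.84, edgeR's adjusted p 0.0256), which left the members at 1 above and 1 below under that setting. The tile from 95768800, with 15 barcodes, gave 0.917, 0.429 and 1.16 times, and the middle tile, with 4 barcodes, gave 1.13, 0.0695 and 0.129 times. CPE, PCSK2, PAM and ERO1LB were not analysed here.

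The 4 elements of glucose sensing and signalling loci gave ratios that differed widely between libraries. Of these 4, edgeR called 0, beside 8.88% of all counted elements above the centre and 0% below. G6PC2 encodes the glucose-6-phosphatase catalytic subunit of islets. Its element on chromosome 2 from 169757687 to 169757884, with 13 barcodes, gave 1.54, 0.238 and 0.663 times the centre. FXYD2 encodes a regulatory subunit of the sodium pump. Its element on chromosome 11 from 117698716 to 117698913, with 4 barcodes, gave 34, 20 and 0 RNA counts on 108 DNA counts. These are 2.70, 1.66 and 0 times the centre, where the count of 0 allows up to 0.231 times, so the same element lay above the centre in 2 libraries and below it in the other.

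GNAS is an imprinted locus that encodes the stimulatory G protein alpha subunit and, from another promoter, the granin-like protein NESP55. Its element on chromosome 20 from 57414702 to 57414899, with 16 barcodes, gave 1.13, 0.239 and 1.51 times the centre. The element from 57415666 to 57415863, with 3 barcodes and 146 DNA counts, gave 0, 6 and 0 RNA counts, which allow up to 0.176 and 0.171 times in replicates 1 and 3. Its log2 ratio of -3.02 ± 1.79 (SE) was the lowest of the members, and edgeR's adjusted p was 0.529. By limma-voom it was called below the centre, with an adjusted p of 0.000647. Its log2 ratio by limma-voom was -3.85. The median log2 ratio of all elements was -0.32 by limma-voom and -0.03 by edgeR. The reason for the different calls was not tested.

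Of the remaining vesicle fusion genes, SCGN encodes secretagogin, a calcium sensor that promotes insulin release, and VAMP2 the SNARE of the granule membrane. The SCGN tile on chromosome 6 from 25652491 to 25652688 was the lowest member with at least 5 barcodes. It gave 2, 7 and 7 RNA counts on 274 DNA counts from 10 barcodes, or 0.0625, 0.229 and 0.213 times the centre, and none of its barcodes reached 5 counts in any library. The log2 ratio was -2.56 ± 1.60 (SE), and its adjusted p was 0.579 by edgeR and 0.0243 by limma-voom. The SCGN tile 100 bp further, with 5 barcodes, gave 0.250, 0.262 and 0.912 times and did not overlap the first over the libraries (exact two-sided sign-flip permutation p of 0.25, 0.75 after adjustment over 12 pairs). The VAMP2 element gave 0, 16 and 1 RNA counts on 94 DNA counts from 3 barcodes, and the 0 allows up to 0.273 times.

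Other islet-enriched loci gave single elements near or under the centre. GAD2 encodes the GABA-synthesizing enzyme that is an autoantigen in type 1 diabetes, and its element gave 0.892, 1.72 and 0.347 times the centre from 9 barcodes. TTR encodes transthyretin, and its element gave 1.11, 0.538 and 0.229 times from 13 barcodes. UCHL1 encodes a ubiquitin hydrolase of neuroendocrine cells, and its element gave 0.252, 0.791 and 0.122 times from 4 barcodes. On chromosome 7, the 3 tiles at the point listed without a name start at 44228849, 44228949 and 44229049 and had means of 1.37 ± 1.19, 1.38 ± 0.893 and 0.622 ± 0.373 times the centre (SD, n = 3), from 7, 4 and 5 barcodes. edgeR called 0 of these 6 elements, beside 8.88% of all counted elements above the centre and 0% below.

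Many of these loci were tiled, so members often shared sequence. Of the 33 members, 21 overlapped another element of the pairing table (63.6%), against 17.9% of all counted elements. Among all counted elements, those that overlapped another had a median log2 ratio of -0.39 and the rest 0.05. Among the members, the 21 that overlapped had -0.75, with 1 called above the centre, and the 12 that did not had -0.54, with 1 called. The part of tiling in the low level of the members was not tested.

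The 12 pairs of overlapping members all shared 98 bp at an offset of 100 bp. In 4 pairs the 3 libraries of 1 tile lay entirely above those of the other, 1 pair each at SCG3 and SCGN and 2 at CHGA. The same separation was found in 21.2% of the 240 counted pairs of the whole table at this offset. The tile of lower coordinate was the higher in 2 of these pairs and the lower in 2. Both tiles of a pair were read in the same 3 libraries, so differences were tested by an exact sign-flip permutation test paired by library. It cannot go below 0.25 before adjustment with 3 libraries, so no pair could pass, and the smallest adjusted p was 0.75. The remaining 8 pairs overlapped between libraries, which does not show that their tiles act alike.

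The number of barcodes and the call went together. Both called members were among the 6 with at least 20 barcodes, and 0 of the 27 with fewer were called. Over all counted elements, 93 of the 423 with at least 20 barcodes were called above the centre and 207 of the 2955 with fewer. The 4 uncalled members with at least 20 barcodes, at GCG, SCG2, SCG5 and PCSK1, were below the centre in all 3 libraries. They make 66.7% of the 6 such members, beside 35.5% of the 423 such elements of the table. The 4 leave out members called above on these same values, and the difference was not tested. For the 31 members not called, the median SE of the log2 ratio was 1.26, so a change of 2-fold was within the error of a typical member.

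Barcodes of high RNA were fewer on these elements than on the table as a whole. A barcode reached at least 5 RNA counts in 18.3%, 16.4% and 17.8% of cases over the 426 member barcodes, against 22.7%, 22.1% and 23.4% over all 35153. In all 3 libraries, 11 of the 426 member barcodes (2.58%) reached 5 counts, against 6.43% of all counted barcodes. All 11 were on the called members, which had 100 barcodes. On the 31 members not called 0 of 326 barcodes did so, against 2.03% of the barcodes of all elements not called. Any RNA was detected for 62.4%, 59.4% and 59.6% of the member barcodes in the 3 libraries, with exact 95% intervals of 57.7 to 67.1%, 54.6 to 64.1% and 54.8 to 64.3%. Over all counted barcodes it was detected for 62.0%, 65.1% and 67.6%, so the members were not lower in replicate 1, and the value over all barcodes lay above the members' interval in replicates 2 and 3. These intervals take barcodes as independent and cover counting error only. Every counted barcode had an RNA count in some library, so these are shares among such barcodes and not among all plasmids.

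The log2 ratios of the members were less correlated between libraries than those of all elements. Over the 33 members, the Pearson correlation of log2 ratios was 0.131 between replicates 1 and 2, 0.522 between 1 and 3, and -0.0914 between 2 and 3, with a mean of 0.187. Over all 3378 elements the mean was 0.526. Without called elements, which are chosen on these same values, the mean was 0.0115 over 31 members and 0.377 over 3078 elements. Over the 17 members with at least 10 barcodes it was 0.581, against 0.723 for the 1143 such elements of the table. These values describe the lists and carry no p, since the libraries share 1 DNA library and tiles share sequence. The members also spanned a narrower range of log2 ratios than all elements, which by itself can lower a correlation. Its part here was not tested. Replicate 2 was the lowest library for 15 of the 33 members, replicate 3 for 10 and replicate 1 for 8. The median ratio of the members in replicates 1, 2 and 3 was 0.691, 0.431 and 0.663. For all counted elements it was 0.908, 0.926 and 0.900.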

How the data were processed

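The authors deposited raw counts per barcode, whole numbers without normalization, in 1 plasmid DNA and 3 RNA columns. A second deposited table assigns 86107 barcodes to 4323 elements. The deposited barcode column is text and carries no score or other measured value. Coordinates are on hg19, which the labels list from the submitters' processing notes. For read trimming, barcode matching and deduplication, the sources used here give no method. In the values, every counted barcode had at least 10 DNA counts and an RNA count, and every element at least 2 barcodes, so plasmids without RNA are missing from all ratios.

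Counts were summed per element and tested over all 3378 elements with edgeR 4.0.16 (R 4.3.3), RNA against DNA, with TMM, glmQLFit, glmQLFTest and a Benjamini-Hochberg threshold of 0.05. A filter of 2 barcodes and 10 DNA counts removed 0 elements. Ratios per library are TMM-scaled RNA over DNA. SE is the log2 ratio over the root of F. With 1 DNA library, p-values and SDs measure only the spread between RNA libraries. Correlations used a pseudocount of 0.5. Alternatives were DESeq2 1.42.0, limma 3.58.1 (voom), library totals, the filters, low RNA counts, the first barcode, the window and leaving out each RNA replicate. Python 3.11.15 was used for the rest.

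The members, their grouping by role and the rule for those given in full (called members, hormone loci, the 5 highest and 5 lowest with at least 5 barcodes, and the extremes of each locus) were chosen with earlier results of these data known. Listed loci with no counted element, ERO1LB, PTPRN, CACNA1D, SLC2A2, CPE, PAM, GLP1R, STX1A, VGF, SLC30A8, RBP4, INS, KCNJ11, ABCC8, PPY, CHGB and PCSK2, and 9 paired elements without counts were not analysed here. Nothing in the element tables names the tissue or cell type, so the labels were not checked against marker genes.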

Additional observations from a re-analysis of the deposited data

How the results depend on the processing

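Calls depended on where the centre was placed and on low RNA counts. The main 2 members above and 0 below the centre became 1 above (SNAP25) and 1 below (PCSK1) with library totals, a setting that moved the median log2 ratio of all elements to -0.77 and called 5% of them above and 1.48% below. With RNA counts of 1 to 4 on single barcodes treated as 0, 0 members were above and 0 below, with 2 above and 1 below at an unadjusted p under 0.05, and adjusted p of 0.0550 for SNAP25 and 0.382 for SCG3 (edgeR's quasi-likelihood test). Over all elements that setting called 3.4% above and 0.207% below. With limma-voom 2 members were above and 2 below, beside 15.1% and 4.03% of all elements, whose median log2 ratio was -0.32. DESeq2, at least 5 barcodes, leaving out the first barcode by RNA and leaving out each RNA replicate in turn gave 2 above and 0 below. DESeq2 called 12.4% of all elements above, with 17 members lacking an adjusted p. At least 5 barcodes called 12.1% (24 members tested), and leaving out the first barcode 9.75% (30 members tested). Leaving out replicate 1, 2 or 3 called 8.56%, 5.71% and 6.45%. No filter and a window of 5 kb also gave 2 above and 0 below, but neither could change the calls. The filter removed 0 elements, and the narrower window only drops 2 members that were not called. Leaving out a replicate gave the SCG3 tile adjusted p from 0.00896 to 0.0488 in edgeR's test, the highest without replicate 3. Without RNA replicate 2 or 3, 193 and 218 elements of the whole table were above the centre, against 300.

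RNA could not be paired with DNA by replicate, because the DNA group has 1 library. The single DNA library and the few barcodes of many members limit the precision.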
